A study of Rattus norvegicus with 6 samples.

Results

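The G1/S and DNA replication genes are a set of 46 rat genes, chosen by symbol, that cells use to leave G1 and copy their DNA. They include the MCM helicase and the proteins that load and start it, the polymerases with their clamp and clamp loader, the enzymes that make deoxynucleotides, and the cyclins and the E2F1 factor that govern S phase entry. Of these, 42 were matched to a probe through the RefSeq accession given for it on the array, and Mcm5, Chaf1a, Uhrf1 and Rpa1 were not matched. Pola2 and Pole2, which encode subunits of DNA polymerases alpha and epsilon, were well above background on 0 of 6 arrays, so neither was tested. This left 40 members among 11939 genes tested. Of the 40, 36 were well above background on all 6 arrays, Cdt1 and Orc6 were so on 2 of 3 corn oil and 3 of 3 CCl4 arrays, Gins2 on 1 and 2, and Orc1 on 2 and 1. No member passed the filter through its CCl4 arrays alone.

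RNA came from the livers of 6 male Sprague-Dawley rats, of the outbred Crl:CD(SD) stock, that were 5 weeks old when bought, and each rat gave 1 array. The control group of 3 rats was dosed with corn oil, and the treated group of 3 rats was dosed with carbon tetrachloride (CCl4) at 100 mg/kg/day, with both on the same basal diet. CCl4 is a solvent that hepatocytes turn into reactive products, and it injures the cells around the central vein. Dosing lasted 28 days by the series design and 9 weeks by the protocol, a conflict that the files leave unsettled.

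Most hepatocytes of an adult rat are outside the cell cycle, and they can re-enter it after injury or loss of tissue. In G1, D-type cyclins and then E-type cyclins with their kinases release E2F factors from RB proteins, and E2F factors switch on genes of DNA synthesis. Origins are licensed when ORC, CDC6 and CDT1 load the MCM ring, and they fire when CDC45 and the GINS complex join that ring.

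Across the 6 arrays the 75th percentile of signal lay between 582.6 and 675.6 units, with 61.9% to 67.3% of probes well above background. Levels are given as log2 of the processed signal minus the array's 75th percentile, so 0 is that percentile, and the level of one gene's probe says nothing against that of another's. CCl4 replicate 1 shared a slide with all 3 corn oil arrays, while CCl4 replicates 2 and 3 were together on another. Blocking on slide thus draws the estimate from CCl4 replicate 1 alone.

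The question put to these genes was how their liver RNA levels after CCl4 compare with those after the vehicle. Rrm2, the ribonucleotide reductase subunit whose level limits deoxynucleotide supply in S phase, rose 5.19-fold, and the other 39 measured members did not pass. A gene was called at an adjusted p below 0.05 in limma, with adjustment over all 11939 genes, and this 1 member called higher of 40 stands beside 0.561% of all genes. Called lower were 0 of 40 members, against 0.0754% of all genes. At an unadjusted p below 0.05 there were 19 members higher and 1 lower, against 9.95% and 9.77% of all genes. The log2 change was positive for 33 of 40 members (82.5%), against 42.8% of all genes tested. Its median over the members was 0.36, with a range of -0.82 to 2.38, and its median over all genes tested was -0.05. For 13 members the change exceeded a 1.5-fold rise, as it did for 7.65% of all genes.

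In 19 of 40 members every CCl4 array was above every corn oil array, against 11.5% of all genes. In 1 member, Mcm10, every CCl4 array was below every corn oil array, against 15.9% of all genes, and in the other 20 the groups overlapped. The median difference of the 40 members from their corn oil means was 0.46, 0.39 and 0.32 in CCl4 replicates 1, 2 and 3. In corn oil replicates 1, 2 and 3 it was -0.08, 0.19 and -0.02. All 3 CCl4 medians were thus above all 3 corn oil medians, with the smallest gap between CCl4 replicate 3 and corn oil replicate 2. CCl4 replicate 1 was the highest CCl4 array for 21 members, replicate 3 for 14 and replicate 2 for 5. With slide as a fixed block, 35 of 40 members had a positive change, against 45.2% of all genes, and the median was 0.46. The 1 member called in that fit was again Rrm2, against 0.0335% of all genes.

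In whole liver, more dividing cells and more RNA per cell cannot be told apart, nor can fewer cells of a type and less RNA per cell. All 8 hepatocyte markers examined were well above background on every array, and their summed signal was 4463 to 4675 times the 75th percentile in corn oil and 3699.7 to 4134 in CCl4. All 8 had negative changes, with a median of -0.23 and 0 called in limma. Macrophage markers summed to 104 to 121 in corn oil and 142 to 163 in CCl4, with 8 of 11 positive and 3 called higher (Trem2, Gpnmb and Lgals3). Over all genes tested, 42.8% had a positive change and 0.561% were called higher. Endothelial markers (5 of 6 tested) summed to 40.4 to 47.4 in corn oil and 32.7 to 39.1 in CCl4, although 3 of 5 had positive changes and the median change was 0.10. Cholangiocyte markers (4 of 5) summed to 1.37 to 1.48 in corn oil and 1.69 to 4.41 in CCl4, with 3 of 4 positive and a median of 0.27. The sums of these 4 cell types did not overlap between the groups. Among all single genes tested, every CCl4 array was above every corn oil array in 11.5% and below in 15.9%. Each sum adds signals across probes, so the brightest markers weigh most in it.

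The other marker sums overlapped between the groups. T and NK cell markers (9 of 10) summed to 4.84 to 6.92 in corn oil and 4.72 to 4.92 in CCl4. Positive changes were found in 5 of 9, with a median change of 0.14. Gzma was called lower, as were 0.0754% of all genes. B cell markers (2 of 4) summed to 0.50 to 0.58 and 0.37 to 0.54, with 0 of 2 positive and a median change of -0.30. Neutrophil markers (4 of 5) summed to 2.71 to 6.01 and 1.53 to 4.37, with 0 of 4 positive and a median of -0.49. Erythroid markers (5 tested) summed to 2.60 to 6.07 and 1.62 to 5.87, with 2 of 5 positive and a median of -0.11. Stellate cell markers (7 of 7) summed to 12.1 to 12.8 and 11.4 to 16.2, with 5 of 7 positive and a median of 0.05. The markers Cd79a, Ms4a1, Mpo, Stab2, Sox9 and Klrb1 were not tested here. The part of these cell types in the members' values was not tested.

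**Figure D1:**
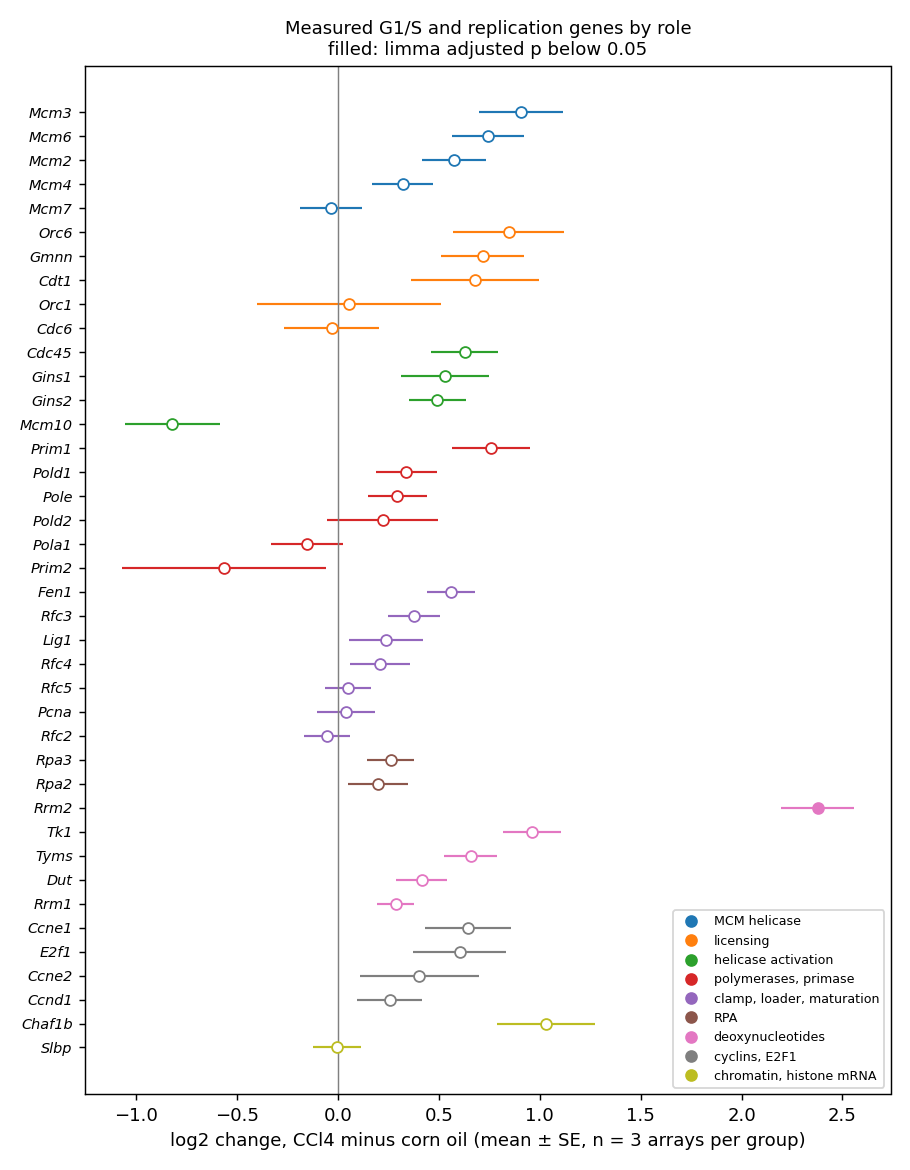
Log2 change of each of the 40 measured members, CCl4 minus corn oil, with its standard error (horizontal axis, n = 3 arrays per group), in blocks by role (colour). Filled symbols passed at an adjusted p below 0.05: Rrm2 alone is filled, at 2.38, and Mcm10 is the lowest, at -0.82.

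**Figure D2:**
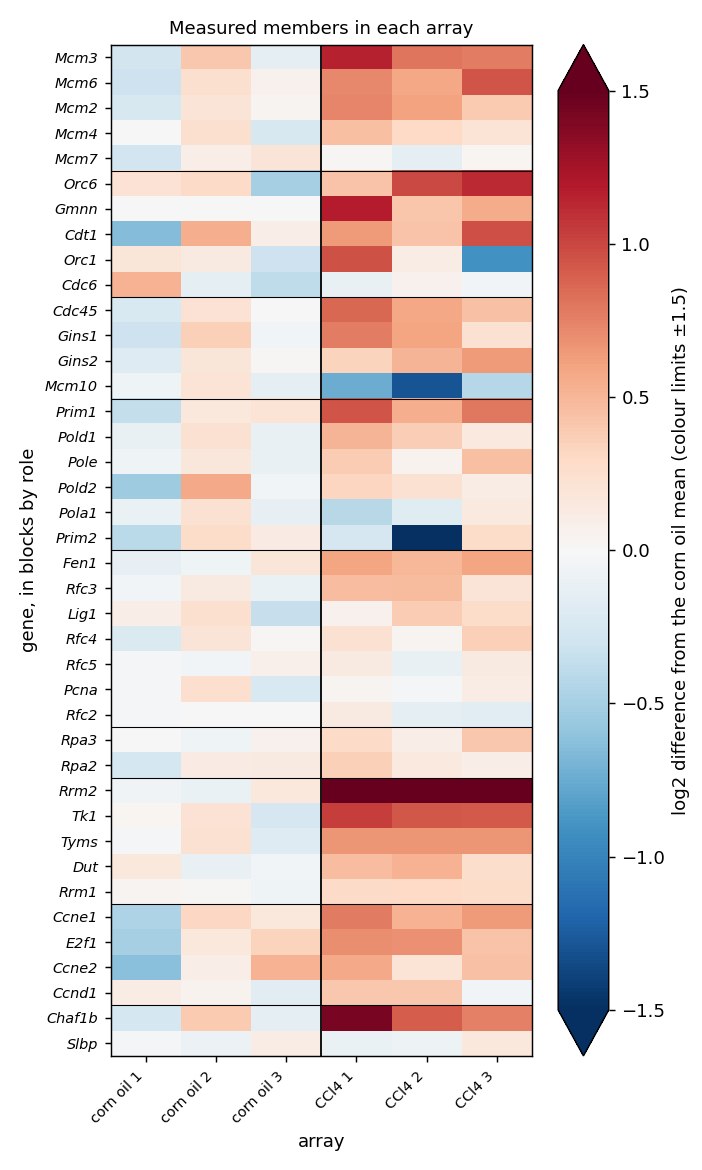
Log2 difference of each member (rows, in blocks by role) from its corn oil mean in each of the 6 arrays (columns), with colour limits at 1.5 in both directions. The deoxynucleotide block is warm in all 3 CCl4 arrays, the clamp block holds pale rows such as Pcna and Rfc2, and Mcm10 is blue in all 3 CCl4 arrays.

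The promoters of these genes are shown because E2F factors act through DNA near their starts. The RefSeq promoter table (GRCr8 build, 250 bases before to 50 after each annotated start) listed 41 windows for 38 of the 46 members, and none for Rrm2, E2f1, Mcm4, Cdc6, Ccnd1, Ccne2, Rpa3 and Orc1. An E2F site was searched on both strands as TTTCCCGC, TTTGGCGC, TTTCGCGC, TTTGCCGC, TTCCCGCC or TTGGCGCC, words that can overlap each other. It was present in 56.1% of the 41 member windows, against 4.07% of all 33469 windows and 7.07% of the 10261 windows of genes tested. CCAAT was present in 58.5% of the member windows, against 37.5% of all windows and 37.9% of those of genes tested. The cell cycle homology element TTTGAA was in 9.76%, against 18.3% of all windows and 12.6% of those of genes tested. The TATA word TATAAA was in 0% of member windows, against 14.2% and 8.84%. Among tested members with a window, an E2F match was found in 8 of the 16 whose CCl4 arrays were all above the corn oil arrays, and in 10 of the other 16. A match to these letters is a description of the window and not a shown binding site, and no factor's binding was measured here.

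The windows of 4 members are printed 5′ to 3′ on the gene's own strand, with E2F matches in capitals. Mcm3 (chr9:30733697-30733996, minus strand), Tyms (chr9:120776034-120776333, minus strand) and Prim1 (chr7:1031212-1031511, plus strand) had CCl4 arrays all above the corn oil arrays. Mcm7 (chr12:22163129-22163428, minus strand) had groups that overlapped and carries matches too. Counted from the annotated start, the matches began at -7, -6 and 14 in Mcm3, at -37 and -36 in Tyms, at -1 in Prim1 and at -233 and -52 in Mcm7.
Mcm3: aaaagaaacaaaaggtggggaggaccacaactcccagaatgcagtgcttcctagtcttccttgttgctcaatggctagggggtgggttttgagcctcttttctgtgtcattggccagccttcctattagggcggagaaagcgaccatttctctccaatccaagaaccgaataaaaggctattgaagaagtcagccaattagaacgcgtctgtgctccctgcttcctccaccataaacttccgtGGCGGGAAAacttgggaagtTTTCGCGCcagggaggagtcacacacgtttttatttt
Tyms: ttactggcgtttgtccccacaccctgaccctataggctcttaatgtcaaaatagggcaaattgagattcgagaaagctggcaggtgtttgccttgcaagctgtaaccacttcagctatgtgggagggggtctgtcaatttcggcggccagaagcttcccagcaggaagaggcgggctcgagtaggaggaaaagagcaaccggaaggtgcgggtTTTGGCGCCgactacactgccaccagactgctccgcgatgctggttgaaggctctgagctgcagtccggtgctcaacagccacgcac
Prim1: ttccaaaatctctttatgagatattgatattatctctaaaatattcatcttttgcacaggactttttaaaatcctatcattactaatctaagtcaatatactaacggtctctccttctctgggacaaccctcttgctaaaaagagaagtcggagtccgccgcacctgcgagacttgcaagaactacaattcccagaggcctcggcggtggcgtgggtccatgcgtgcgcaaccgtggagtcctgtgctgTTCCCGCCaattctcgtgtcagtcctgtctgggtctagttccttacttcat
Mcm7: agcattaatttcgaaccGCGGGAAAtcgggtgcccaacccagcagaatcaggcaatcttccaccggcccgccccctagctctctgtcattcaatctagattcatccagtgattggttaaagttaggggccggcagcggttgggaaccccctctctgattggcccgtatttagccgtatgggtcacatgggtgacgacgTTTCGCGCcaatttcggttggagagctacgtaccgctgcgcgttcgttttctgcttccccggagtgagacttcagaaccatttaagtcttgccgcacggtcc

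Deoxynucleotide supply was the role in which all 5 members, each by its brightest probe, had CCl4 arrays above all corn oil arrays. This held for 11.5% of all genes, and for 0 of 10 measured genes in the other deoxynucleotide and folate list. The median change of the 5 members was 0.66, and 1 of the 5, Rrm2, was called in limma. Rrm2 read -0.19, -0.23 and 0.02 in corn oil replicates 1 to 3, and 2.61, 2.06 and 2.07 in CCl4 replicates 1 to 3. The groups were far apart, and CCl4 replicate 1 was the highest array. The log2 change was 2.38 ± 0.18 (SE, n = 3 arrays per group; adjusted p = 0.0114), and 2.74 with slide as a block (adjusted p = 0.0458). The call was lost without corn oil replicate 3 (2.45, adjusted p = 0.0526), without CCl4 replicate 2 (2.47, adjusted p = 0.0723) and within the first slide alone (2.74, adjusted p = 0.0913). Rrm2 had 4 probes past the filter, with changes of 2.38, 2.27, 1.86 and 1.14. The probe at 2.27 was not well above background on any corn oil array and gave at least 4.10-fold higher, the CCl4 mean being set against, per corn oil array, the probe's own signal or the smallest one called well above background, whichever was higher. All 4 probes were thus higher in CCl4 by unequal amounts.

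Tk1 encodes thymidine kinase, which salvages thymidine in S phase. Its level was 0.17, 0.36 and -0.11 in corn oil, and 1.18, 1.07 and 1.05 in CCl4. The CCl4 arrays lay close together and above all corn oil arrays. The change of 0.96 ± 0.14 narrowly missed the threshold (adjusted p = 0.0558) and passed under 5 alternatives, among them normexp background correction (0.96, adjusted p = 0.0237) and slide as a random block (0.96, adjusted p = 0.0490). A dimmer second Tk1 probe, well above background on all 6 arrays, gave 0.82 with groups that overlapped. Tyms, the thymidylate synthase gene, read -1.57, -1.32 and -1.74 in corn oil, and -0.89 in each CCl4 array. Its change was 0.66 ± 0.13 (adjusted p = 0.0763). Dut, whose enzyme removes dUTP, was at 0.42 ± 0.12 (adjusted p = 0.158). Rrm1, the large reductase subunit that pairs with the Rrm2 product, read -2.30, -2.31 and -2.40 in corn oil and -2.05, -2.03 and -2.06 in CCl4. On this probe the groups did not overlap although the change was 0.29 ± 0.09 (adjusted p = 0.174). Dimmer Rrm1 probes past the filter gave 0.16 and 0.43, each with groups that overlapped. By their brightest probes alone, Rrm1 and Rrm2 both had higher CCl4 arrays, by unequal amounts.

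Of the MCM ring, which unwinds DNA at the fork, 5 of 6 subunit genes were measured and 0 passed in limma, where 3 were higher at an unadjusted p below 0.05 (9.95% of all genes were). Mcm3 read -0.84, -0.17 and -0.70 in corn oil, and 0.58, 0.23 and 0.20 in CCl4. The CCl4 arrays were all above the corn oil arrays, with corn oil replicate 2 nearest to them. The change was 0.91 ± 0.21 (adjusted p = 0.0996). Its 4 probes gave 0.66 to 1.51, the dimmest of them not well above background on any corn oil array and at least 2.23-fold higher.

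Mcm6 read -4.45, -3.89 and -4.07 in corn oil and -3.42, -3.56 and -3.20 in CCl4, a change of 0.74 ± 0.18 (adjusted p = 0.106). Its probe was dim, and normexp correction gave 0.20 (adjusted p = 0.340). Mcm2 read -1.89, -1.45 and -1.60 in corn oil and -0.91, -1.05 and -1.26 in CCl4, a change of 0.58 ± 0.16 (adjusted p = 0.132). In both genes the groups did not overlap on these probes. Dimmer Mcm2 probes gave 0.53, with groups that overlapped, and 0.36, with groups that did not. Mcm4 read -0.53, -0.28 and -0.76 in corn oil and -0.07, -0.22 and -0.31 in CCl4, and here corn oil replicate 2 lay within the CCl4 arrays (0.32 ± 0.15, adjusted p = 0.298). A dimmer second Mcm4 probe, well above background on all 6 arrays, gave 0.80 with groups that did not overlap. Mcm7 stood apart from these subunits in its values, at 1.84, 2.24 and 2.33 in corn oil and 2.15, 1.99 and 2.16 in CCl4. Its groups overlapped fully, the change was -0.03 ± 0.15 (adjusted p = 0.923) and its second probe gave -0.14. No test of the difference between subunits was made, and the sign of Mcm7 turned with slide as a block (0.019) and under quantile normalization (0.00025).

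Among genes of origin recognition and licensing, Orc6 had the largest change. Orc6, an ORC subunit, read -4.81, -4.74 and -5.53 in corn oil and -4.60, -4.04 and -3.91 in CCl4. The gap between the groups was small and CCl4 replicate 1 lay nearest to the corn oil arrays (0.85 ± 0.27, adjusted p = 0.183). Gmnn encodes geminin, which binds CDT1 and blocks relicensing, and its level was -3.36, -3.35 and -3.35 in corn oil and -2.17, -2.94 and -2.80 in CCl4. Its corn oil arrays were nearly equal and CCl4 replicate 1 was highest (0.72 ± 0.21, adjusted p = 0.146). Cdt1, a loading factor, was at 0.68 ± 0.32 (adjusted p = 0.295) with overlapping groups. Normexp correction took Orc6 to 0.15, Gmnn to 0.31 and Cdt1 to 0.024.

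Cdc6, the other loading factor, read -3.95, -4.61 and -4.85 in corn oil and -4.58, -4.40 and -4.51 in CCl4. The CCl4 arrays lay inside the corn oil range (-0.03 ± 0.23, adjusted p = 0.954). Orc1, the ORC subunit that comes and goes with the cell cycle, read -5.05, -5.10 and -5.55 in corn oil and -4.28, -5.13 and -6.14 in CCl4. Its CCl4 arrays spanned the corn oil ones on both sides (0.05 ± 0.45, adjusted p = 0.959). The value was -0.40 without CCl4 replicate 1 and 0.96 with slide as a block. Cdc6, Cdt1, Orc1 and Orc6 were all dim, and the lowest signal called well above background was -5.66 to -4.98 by array.

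Helicase activation held the one member whose CCl4 arrays were all lower. Mcm10, which binds the active helicase and polymerase alpha, read -0.54, -0.28 and -0.62 in corn oil and -1.22, -1.77 and -0.90 in CCl4. CCl4 replicate 2 was the lowest array and the groups did not overlap. The change was -0.82 ± 0.24 without passing (adjusted p = 0.145). A dim second Mcm10 probe, well above background on 3 arrays, gave -0.69 with groups that overlapped. Cdc45, part of the active helicase, went the other way in its values, with -1.21, -0.77 and -0.98 in corn oil and -0.12, -0.40 and -0.54 in CCl4. These groups were also separate (0.63 ± 0.17, adjusted p = 0.125). The GINS subunit genes Gins1 (0.53 ± 0.22, adjusted p = 0.250) and Gins2 (0.49 ± 0.14, adjusted p = 0.143) had positive values, and normexp correction took Gins2, a dim probe, to -0.0033.

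Of 8 polymerase and primase genes 6 were measured, with a median change of 0.26. Prim1, the catalytic primase subunit, read -0.18, 0.33 and 0.38 in corn oil and 1.12, 0.72 and 0.97 in CCl4. Its CCl4 arrays were all higher (0.76 ± 0.19, adjusted p = 0.114) and its second probe gave 0.71. Prim2, the other primase subunit, read 0.21, 0.90 and 0.75 in corn oil and 0.37, -1.09 and 0.89 in CCl4. A single array, CCl4 replicate 2, was low, and the other CCl4 arrays lay within the corn oil range (-0.56 ± 0.51, adjusted p = 0.562). Without that array the value was 0.0086, and the second Prim2 probe gave -0.05.

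Pola1, the catalytic subunit of polymerase alpha, read -4.39, -4.06 and -4.41 in corn oil and -4.70, -4.47 and -4.15 in CCl4. Its groups overlapped (-0.15 ± 0.18, adjusted p = 0.661). The polymerase delta genes Pold1 (0.34 ± 0.15) and Pold2 (0.22 ± 0.27) and the polymerase epsilon gene Pole (0.29 ± 0.15) also had overlapping groups, with adjusted p from 0.277 to 0.677.

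Among clamp, clamp loader and maturation genes Fen1, the flap endonuclease that trims Okazaki fragments, had the largest change. It read 1.46, 1.53 and 1.77 in corn oil and 2.17, 2.08 and 2.18 in CCl4. The groups were separate and the CCl4 arrays lay close together (0.56 ± 0.12, adjusted p = 0.0845). The call was gained with normexp correction (0.60, adjusted p = 0.0474), while a dim second probe, well above background on 4 arrays, gave 0.03. Pcna encodes the sliding clamp, a common marker of S phase cells, and it read 1.12, 1.39 and 0.91 in corn oil and 1.18, 1.11 and 1.25 in CCl4. All CCl4 arrays lay within the corn oil range (0.04 ± 0.14, adjusted p = 0.896), the second probe gave -0.01, and normexp correction turned the sign (-0.045).

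The clamp loader genes Rfc3 (0.38 ± 0.13, adjusted p = 0.193) and Rfc4 (0.21 ± 0.15, adjusted p = 0.463) had positive values, with separate groups for Rfc3 alone. Rfc5 was at 0.05 ± 0.11 (adjusted p = 0.829). Rfc2 read 0.10, 0.12 and 0.11 in corn oil and 0.25, -0.02 and -0.05 in CCl4, so that CCl4 arrays lay on both sides of a tight corn oil group (-0.05 ± 0.12, adjusted p = 0.829). Its sign turned with slide as a block (0.14). Lig1, which seals Okazaki fragments, was at 0.24 ± 0.18 (adjusted p = 0.498). Of the genes for RPA, which coats single-stranded DNA, Rpa3 read 1.95, 1.88 and 2.00 in corn oil and 2.24, 2.04 and 2.34 in CCl4. Its groups were separate by a small gap (0.26 ± 0.12, adjusted p = 0.273), and Rpa2 was at 0.20 ± 0.15 (adjusted p = 0.491).

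**Figure D3:**
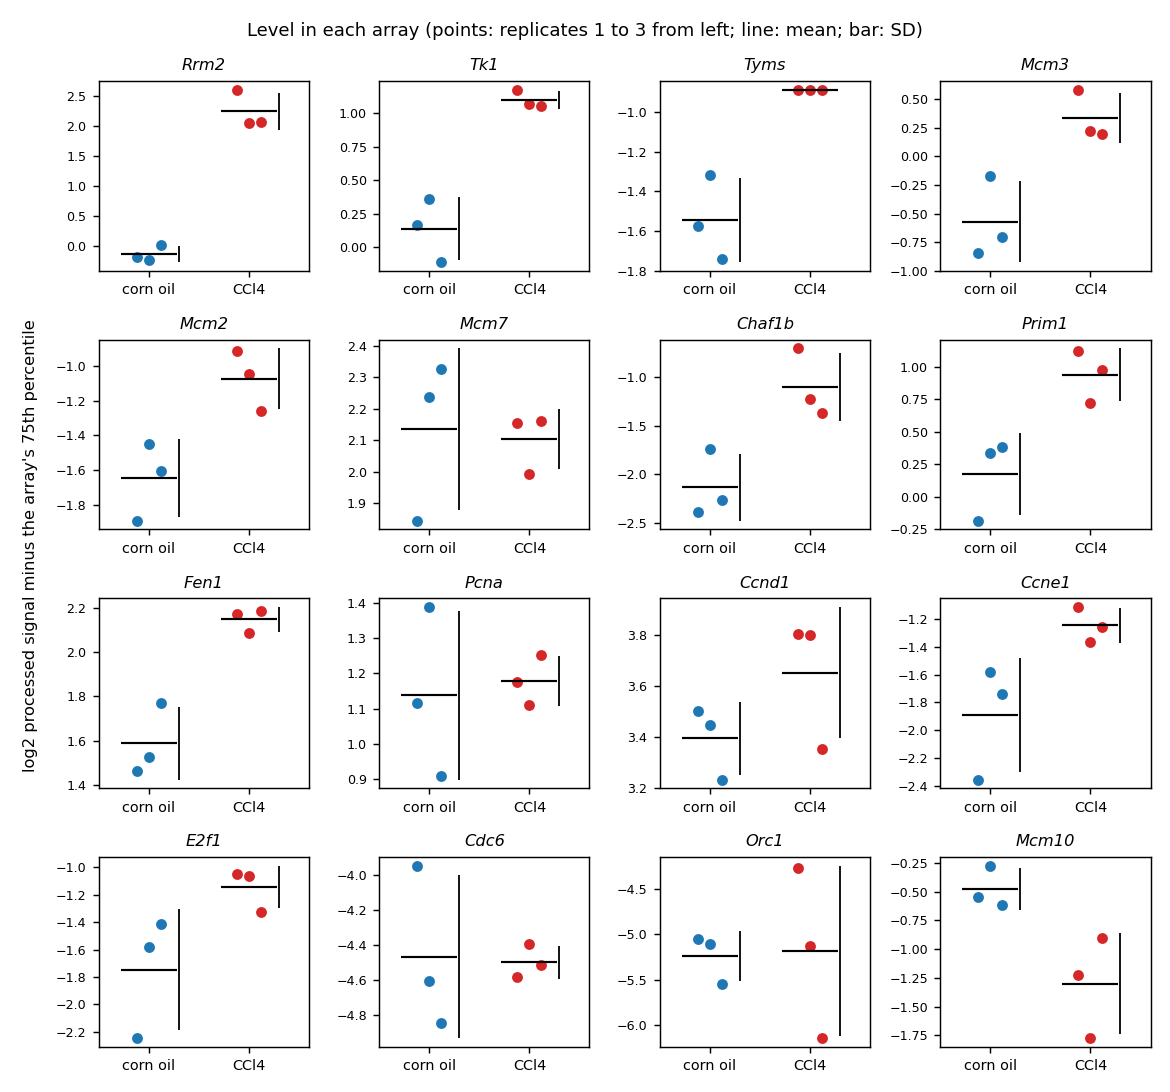
Level of 16 members in each array (vertical axis, log2 processed signal minus the array's 75th percentile, with a scale of its own in each panel), for corn oil (blue) and CCl4 (red), with group means and SD bars (n = 3). Rrm2 separates the groups by over 2 log2 units, Mcm7, Pcna, Cdc6 and Orc1 overlap, and Mcm10 is lower in all 3 CCl4 arrays.

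The G1/S cyclins and E2F1 all had positive changes, and 0 of 4 passed in limma, where 2 were higher at an unadjusted p below 0.05, against 9.95% of all genes. Ccne1 encodes cyclin E1, the partner of CDK2, and it read -2.35, -1.58 and -1.74 in corn oil and -1.12, -1.37 and -1.26 in CCl4. The groups were separate, with corn oil replicate 1 the lowest array (0.64 ± 0.21, adjusted p = 0.191), and a dim second probe, with 1 of 3 corn oil arrays well above background, gave 1.56. E2f1 read -2.25, -1.58 and -1.41 in corn oil and -1.05, -1.06 and -1.32 in CCl4. Corn oil replicate 3 came close to CCl4 replicate 3 (0.60 ± 0.23, adjusted p = 0.233). Its 4 probes ranged from 0.15 to 1.41, and the dimmest, at 1.41, had 1 of 3 corn oil arrays well above background. Normexp correction took the brightest probe of E2f1 to 0.39.

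Ccnd1, the cyclin D1 gene that links growth signals to the cycle, read 3.50, 3.44 and 3.23 in corn oil and 3.80, 3.80 and 3.35 in CCl4. Replicates 1 and 2 of CCl4 were above all corn oil arrays, and CCl4 replicate 3 lay among them (0.26 ± 0.16, adjusted p = 0.411). Ccne2 was at 0.40 ± 0.29 (adjusted p = 0.476), and at 0.066 with normexp correction. Chaf1b encodes a subunit of CAF-1, which places histones on new DNA, and its values moved more than those of any member but Rrm2. It read -2.39, -1.74 and -2.27 in corn oil and -0.71, -1.22 and -1.37 in CCl4. The groups were separate (1.03 ± 0.24, adjusted p = 0.101), and CCl4 replicate 1 was highest. Slbp, which binds the stem-loop of histone mRNA, read 0.51, 0.45 and 0.64 in corn oil and 0.43, 0.46 and 0.69 in CCl4. These groups overlapped fully (-0.01 ± 0.12, adjusted p = 0.986).

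Several probes passed the filter for 22 members, and in 3 of them, Pcna, Rfc5 and Slbp, the probes had both signs, all within 0.2 of 0. The lowest and highest probe differed by over 0.5 in 6 members, Rrm2, Mcm3, Ccne1, E2f1, Fen1 and Prim2, without a change of sign in any of these.

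**Figure D4:**
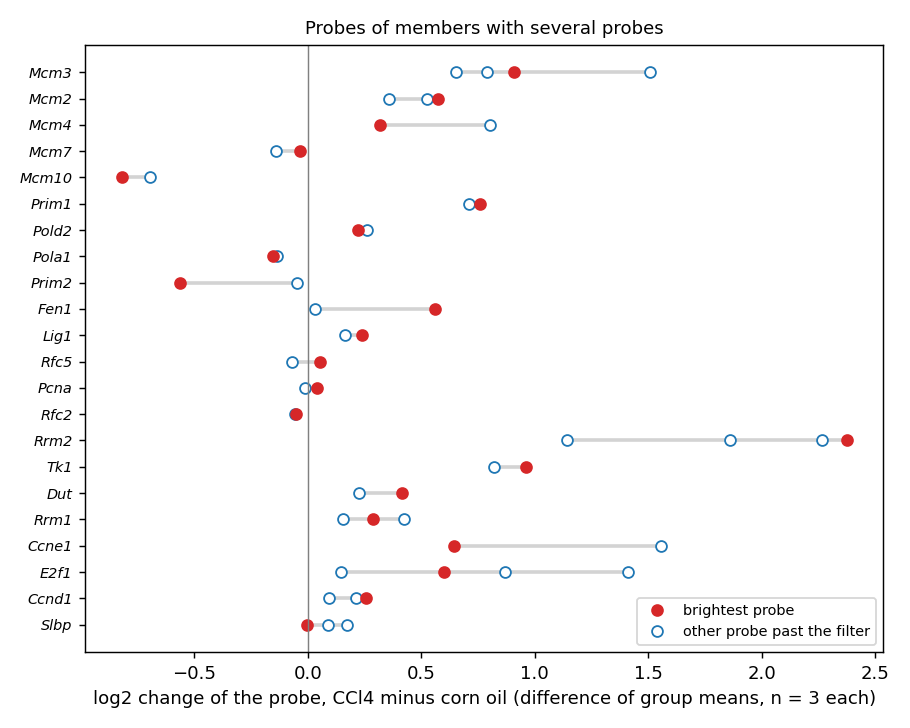
Log2 change of each probe past the filter (horizontal axis, difference of group means, n = 3 each) for the 22 members with several probes, with the brightest probe in red and others open. The 4 probes of Rrm2 spread from 1.14 to 2.38 and those of E2f1 from 0.15 to 1.41, while both probes of Mcm10 lie below 0.

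Other genes of the pathway were taken as 94 genes in 6 lists, of which 75 were measured. In limma 0 of 75 passed, with 10 higher and 6 lower at an unadjusted p below 0.05, against 9.95% and 9.77% of all genes, shares close to those of the list. A positive change was found in 43 of 75 (57.3%), against 42.8% of all genes. Their median was 0.02, against 0.36 for the members and -0.05 for all genes. Mybl2, an S phase transcription factor gene under E2F control, read -5.04, -5.32 and -4.41 in corn oil and -2.18, -1.28 and -3.32 in CCl4. The groups were far apart and the CCl4 arrays were scattered (2.67 ± 0.52, adjusted p = 0.0755), and its second probe gave 1.05. Pclaf, whose product binds PCNA, read -4.81, -4.09 and -4.67 in corn oil and -2.92, -2.60 and -3.17 in CCl4 (1.63 ± 0.24, adjusted p = 0.0524). The groups of this PCNA partner were separate, and those of Pcna overlapped. With normexp correction Mybl2 was at 1.07 and Pclaf at 0.56.

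The CDK inhibitor genes had 7 of 8 positive changes and a median of 0.30, which became 4 of 8 and 0.04 with slide as a block. Cdkn2c, an inhibitor of CDK4 and CDK6, had the highest value (0.65 ± 0.13, adjusted p = 0.0759) and Cdkn1a the lowest (-0.21 ± 0.12, adjusted p = 0.371). The sign of Cdkn1a turned with the probe, since its 3 probes ranged from -0.21 to 0.46 and their mean gave 0.23. In the list of G1/S kinases, cyclins, E2F and RB genes 8 of 19 changes were positive, with a median of -0.04, and Tfdp2, an E2F partner, was lowest (-0.72 ± 0.14, adjusted p = 0.0725). The licensing and helicase list had 11 of 15 positive changes and a median of 0.25, from Mcmbp (-0.22 ± 0.13) to the GINS gene Gins3 (0.56 ± 0.12), and 0.11 with slide as a block. The other 3 lists had medians of 0.0032 (polymerase and clamp, lowest Rfc1 at -0.34 ± 0.11), -0.02 (deoxynucleotide and folate, from Mthfd1 at -0.53 ± 0.20 to Dctd at 0.35 ± 0.29) and 0.0079 (chromatin, from Asf1b at -0.33 ± 0.14 to Dnmt1 at 0.32 ± 0.12). Adjusted p for these lowest and highest genes of the 4 lists was 0.0524 to 0.535. Other probes had the opposite sign in Asf1b (0.92, with 0.29 for the mean of its probes), Dnmt1 (-0.11) and Rfc1 (up to 0.04).

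Genes of G2 and mitosis, which act after S phase, are the nearest set for comparison. Of 33 measured 4 passed, all higher, against 0.561% of all genes, and 0 passed with slide as a block. In 28 every CCl4 array was above every corn oil array, against 11.5% of all genes, and the median change was 1.33, against 0.36 for the members. One of the 33, Cenpf, passed the filter through its CCl4 arrays alone, and without it these values were 27 of 32 and 1.26. By array the median of the 33 was 1.41, 1.34 and 1.07 in CCl4 replicates 1, 2 and 3, so the order of these arrays was that of the members. In corn oil replicate 1 it was -0.38, below 0.26 and 0.20 in corn oil replicates 2 and 3. Of 24 measured p53 target genes 0 passed in limma, with 7 higher and 1 lower at an unadjusted p below 0.05, against 9.95% and 9.77% of all genes, and a median of 0.22. The difference between these sets and the members was not tested. Cdkn1a and Rrm2b stand both among the p53 targets and among the other pathway genes.

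**Figure D5:**
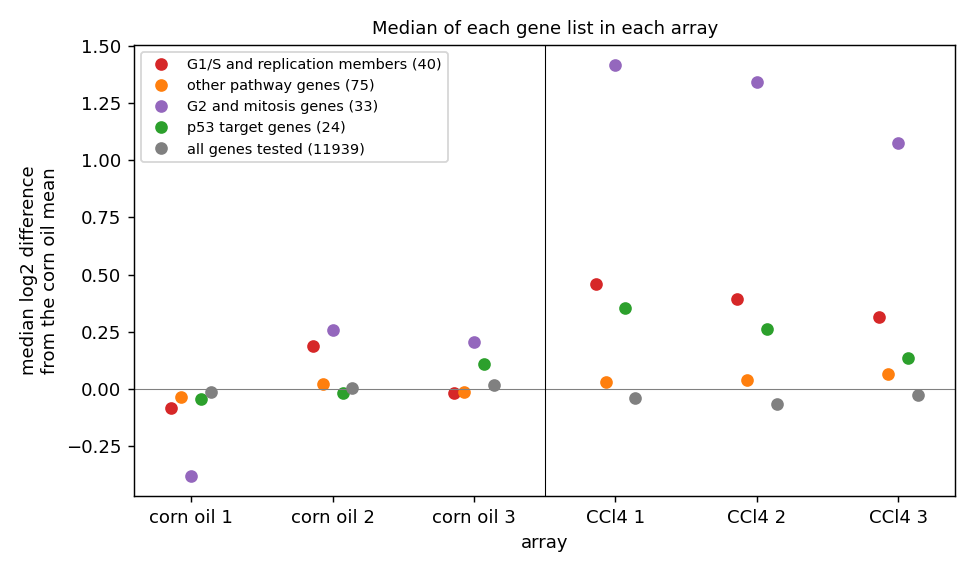
Median log2 difference from the corn oil mean (vertical axis) in each of the 6 arrays (horizontal axis) for the 40 members, 75 other pathway genes, 33 G2 and mitosis genes, 24 p53 target genes and all genes tested. The other pathway and p53 target genes share Cdkn1a and Rrm2b. Members sit at 0.32 to 0.46 in the CCl4 arrays, below the G2 and mitosis genes at 1.07 to 1.41 and above all genes tested, which lie near 0.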

How the data were processed

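Per the labels' protocols, Cy3-labelled liver RNA of 6 rats was measured on Agilent arrays of 1 colour. The deposited scanner files hold background-subtracted intensity per spot from Agilent Feature Extraction (per the file headers version 10.7.1.1, and 10.7 in the submitters' processing notes). A ratio fills the deposited value table, the processed signal over a divisor near each array's 75th percentile, inferred from the values. Per-spot flags (above background, saturated, outlier) were read as deposited.

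Groups came from the treatment label and replicate numbers from the titles. Of 61537 probes 28206 matched 1 symbol by unversioned RefSeq accession (GRCr8 gene table). The array design names the rn4 build, so no coordinates are given for probes. The 26 probes with an outlier flag were left out. Signals were log2-transformed, the 75th percentile was subtracted, and the brightest probe well above background on at least 3 of 6 arrays stood for its gene. Between 0 and 4 probes per array were saturated. limma 3.58.1 in R 4.3.3 (lmFit, eBayes, two-sided, Benjamini-Hochberg over 11939 genes) compared the groups, after a test on simulated data. The number of arrays limits the precision.

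The members, gene lists and tests were chosen with earlier results of these data known. Named in full are called members, the largest change per role, every negative change, Mcm2 to Mcm7, Pcna, Ccnd1, Ccne1 and E2f1. Tk1, Tyms, Rrm1, Gmnn and Orc1 were added after their values were seen, and the change alone is given for the remaining members. Of other pathway genes, the highest and lowest of each list qualified. Alternatives were quantile or median scaling, normexp correction (offset 50, on median spot signals because mean signals were not among the columns used), the authors' values, other filters, probe means, a variance trend, array weights, slide or replicate blocks, the first slide alone and leaving out each array.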

Additional observations from a re-analysis of the deposited data

How the results depend on the processing

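Of 756 values of single members under 19 alternatives, 720 kept their sign and side of the threshold. Leaving out 1 array aside, 33 of 40 members kept their sign under all 13 alternatives. The exceptions were all small. Mcm7 was at 0.00025 under quantile normalization and 0.019 with slide as a fixed block or on the first slide alone, and Rfc2 was at 0.14 under the same slide settings. Slbp was at 0.0040 under quantile normalization, 0.059 under normexp and 0.086 with probe means, and Rfc5 at -0.0084 with probe means. Under normexp Pcna was at -0.045, Gins2 at -0.0033 and Pola1 at 0.028. With an array left out, the range was -0.18 to 0.062 for Mcm7, -0.073 to 0.17 for Pcna, -0.22 to 0.23 for Cdc6, -0.98 to 0.0086 for Prim2, -0.046 to 0.51 for Pold2, -0.15 to 0.00037 for Rfc2, -0.40 to 0.53 for Orc1 and -0.085 to 0.049 for Slbp. Members called higher were 3 under normexp (Rrm2, Tk1 and Fen1), 2 with the filter on all 6 arrays, a variance trend, array weights or slide as a random block (Rrm2 and Tk1), 0 on the first slide alone and 0 to 1 with an array left out. The median of the members was 0.23 under normexp, which adds an offset, and 0.31 to 0.45 with an array left out.

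Over all genes, 67 were called higher and 9 lower. These counts were 173 and 44 under normexp, 119 and 20 with the filter on all 6 arrays, 130 and 26 with a variance trend, 112 and 16 with array weights, 4 and 0 with slide as a fixed block, and 0 and 0 on the first slide alone. Median scaling gave 14 lower. With an array left out they ran from 2 to 185 higher and from 0 to 56 lower, and the higher calls were 23, 42 and 5 when corn oil replicates 1, 2 and 3 were dropped in turn and 4, 2 and 185 for CCl4 replicates 1, 2 and 3. The cause of these shifts was not tested.

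With the replicate number as a block, 10 genes were called higher and 0 lower, and 0 members (Rrm2 at 2.38, adjusted p = 0.0705). The labels give no pairing beyond the number. Deviations of same-numbered arrays from their group means correlated at -0.05, 0.16 and 0.02, and not every array correlated best with its own number. The number of arrays, 3 per group, and signals near background for Cdt1, Orc1, Orc6 and Gins2 limit what could be detected.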
